A study of Mus musculus with 6 samples.

Results

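The Sprouty, Spred and Dusp feedback genes described here are 10 genes: Spry1, Spry2, Spry4, Spred1, Spred2, Dusp4, Dusp5, Dusp6, Il17rd and Ier3. They were taken by gene symbol from a deposited count table of 31017 genes, in which 10 of the 10 symbols were found and 10 passed the filter on low counts. Poly(A) RNA was sequenced from 4T1, a line of mouse mammary carcinoma cells, grown in 3D gels of collagen I. The 3 ETV4 KO libraries came from cells nucleofected with Cas9 and guides against Etv4, and the 3 control libraries from cells given Cas9 and control guides by the same method. The 3 ETV4 KO libraries carry the same code, c39, and the labels do not say whether it is 1 clone, or whether the libraries of a group came from separate cultures. All p-values and SEs (n = 3 libraries per group throughout) thus rest on a spread that may be technical.

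ERK, the last kinase of the cascade from growth factor receptors through RAS, RAF and MEK, switches on genes whose products restrain the same cascade. Sprouty proteins act near the receptor and at RAS and RAF. Spred proteins bring the RAS inhibitor neurofibromin to the membrane, and the dual-specificity phosphatases encoded by Dusp genes remove the activating phosphates from ERK itself. The transcripts of these genes are widely used as a readout of ERK output in epithelia and in carcinoma cells. Etv4 belongs to the PEA3 group of ETS transcription factors, which are themselves induced and phosphorylated downstream of FGF receptors and ERK.

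In ETV4 KO cells the feedback genes did not move as a block. Dusp5, a nuclear ERK phosphatase, rose 2.34-fold, Ier3 rose 1.77-fold and Spry4 rose 1.64-fold, whereas Spry1 fell to 0.504 of its control level. The other genes of each family moved little or the other way: Dusp6, a cytoplasmic ERK phosphatase, fell to 0.834 of control, Dusp4 stood at 1.06, and Spry2 rose 1.16-fold. At an edgeR quasi-likelihood adjusted p under 0.05, 5 of the 10 rose, 4 fell and 1, Spred1, did not pass. This is beside 71.1% of the 12076 tested genes called in either direction, 35.0% called higher and 36.0% called lower, the background against which these counts are to be read. Of the 10 genes, 1 (Dusp5) rose by at least 2-fold, beside 3.87% of all tested genes, and 0 fell by as much, beside 6.02%. Their median log2 fold change was 0.061, beside -0.0038 over all tested genes.

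The upstream stretches of 4 of these genes are printed here because they come from pairs of close relatives, Dusp5 with Dusp6 and Spry1 with Spry2, whose transcripts moved in opposite directions. The rise of Spry2 was small, at 0.21 on the log2 scale, and was not called with the median of its neighbouring genes taken out. Each stretch runs 5′ to 3′ on the strand of the gene, from 250 bases before the RefSeq start to that start, or to the first GENCODE start where that came earlier (RefSeq, build GRCm38.p6). Capitals mark the PEA3 motif AGGAAG, read on either strand as AGGAAG or CTTCCT, and the CArG box, the site of serum response factor. The Dusp5 stretch is chr19:53528895-53529108 on the plus strand, Dusp6 is chr10:99262981-99263230 on the plus strand, Spry1 is chr3:37639697-37639946 on the plus strand, and Spry2 is chr14:105896820-105897069 on the minus strand.
Dusp5: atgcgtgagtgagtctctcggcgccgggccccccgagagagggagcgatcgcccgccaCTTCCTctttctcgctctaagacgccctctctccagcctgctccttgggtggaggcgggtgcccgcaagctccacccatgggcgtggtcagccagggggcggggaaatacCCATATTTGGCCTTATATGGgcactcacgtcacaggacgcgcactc
Dusp6: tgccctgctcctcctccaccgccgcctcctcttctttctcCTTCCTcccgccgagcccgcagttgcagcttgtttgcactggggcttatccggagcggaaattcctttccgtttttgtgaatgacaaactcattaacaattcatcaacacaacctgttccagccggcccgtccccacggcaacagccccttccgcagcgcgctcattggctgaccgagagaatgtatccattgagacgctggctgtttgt
Spry1: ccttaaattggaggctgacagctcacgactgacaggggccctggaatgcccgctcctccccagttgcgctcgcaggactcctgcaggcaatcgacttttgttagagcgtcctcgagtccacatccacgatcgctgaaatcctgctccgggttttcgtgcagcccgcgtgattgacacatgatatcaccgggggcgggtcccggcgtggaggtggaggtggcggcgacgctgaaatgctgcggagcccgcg
Spry2: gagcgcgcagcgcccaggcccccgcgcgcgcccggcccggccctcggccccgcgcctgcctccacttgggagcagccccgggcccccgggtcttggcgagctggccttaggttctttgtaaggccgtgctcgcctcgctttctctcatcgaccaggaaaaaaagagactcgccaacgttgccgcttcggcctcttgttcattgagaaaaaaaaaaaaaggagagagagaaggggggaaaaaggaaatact

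RefSeq promoter windows of 300 bases, 250 before and 50 after the start, were at hand for 8 of the 10 genes, with none used here for Spry4 and Dusp4. AGGAAG was found in 4 of these 8 windows, those of Dusp5, Dusp6, Ier3 and Spred2, beside 35.4% of the 32851 mouse windows and 32.6% of those of tested genes. Of these 4 genes, Dusp5 and Ier3 rose and Dusp6 and Spred2 fell. In Dusp5 the match began 192 bases before the start and in Dusp6 210 bases before it, both on the opposite strand. The longer ETS motif CCGGAAG (8.86% of all windows and 18.0% of the 11897 windows of tested genes), the AP-1 motif TGANTCA (7.81% and 5.32%), the cAMP response element TGACGTCA (1.79% and 3.24%) and the E-box CACGTG (7.15% and 10.1%) had no match in the 8 windows. Each was searched on both strands. The CArG box was searched for after the Dusp5 sequence had been read. It was present in the Dusp5 window, as a tandem pair beginning 82 and 72 bases before the start, and in no other of the 8, beside 1.63% of all windows and 1.27% of those of tested genes. A match or its absence describes these letters only.

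The total counts ran from 24356286 to 29042569 in the ETV4 KO libraries and from 22355015 to 26669985 in the control libraries. Etv4 itself (chromosome 11) had 87.4, 89.5 and 92.3 CPM in the ETV4 KO libraries, against 134, 135 and 133 CPM in the control libraries. Its log2 fold change was -0.58 (SE 0.036, edgeR adjusted p = 1.03e-14). Its neighbours on chromosome 11 had a median of -0.46, with which taken out Etv4 had -0.11, and reads summed over a gene cannot show whether its protein was lost. CPM are counts scaled to library size with TMM factors, except in the marker sums that follow, which are scaled to total counts alone. Of 6 markers of mammary carcinoma epithelium 6 were expressed, with a summed level of 4018 to 4182 CPM in ETV4 KO and 5581 to 5720 CPM in control libraries. Their single log2 fold changes were unequal, from -1.37 for Epcam to -0.048 for Krt7, which was not called. Of the 7 fibroblast markers 1, Pdgfra, passed the count filter and Lum and Thy1 were at 0; the list summed to 12.7 to 14.4 CPM in ETV4 KO and 10.1 to 11.9 CPM in control. The 6 leukocyte and 5 endothelial markers each summed to less than 1 CPM in every library, with Cd3e, Lyz2, Adgre1 and Emcn at 0. The part of the lower epithelial sum in the results below was not tested. In bulk RNA, fewer cells of a kind and less RNA per cell cannot be told apart.

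**Figure D1:**
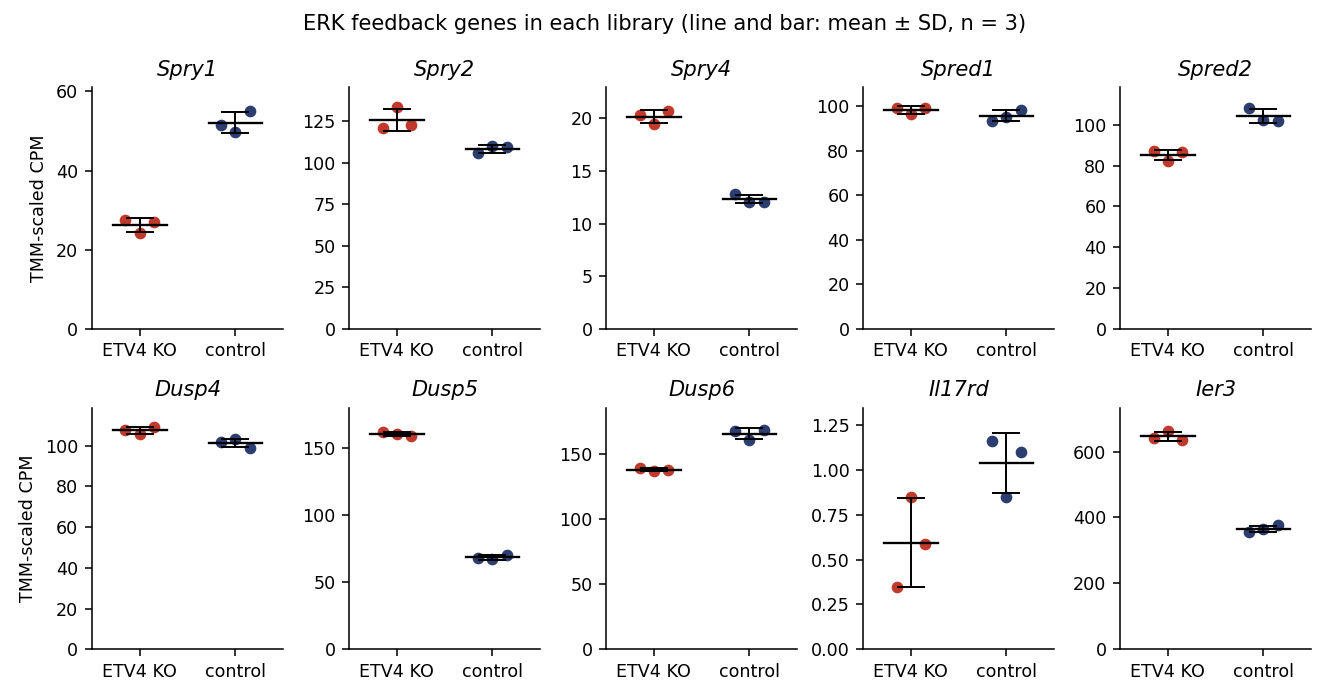
Level of each of the 10 feedback genes in every library, in TMM-scaled CPM on axes that start at 0; points are libraries, the line and bar are the mean ± SD (n = 3), with ETV4 KO left of control. The groups stand apart for Dusp5, Ier3, Spry4 and Spry1, lie close for Dusp4 and Spry2, nearly touch for Il17rd, and overlap for Spred1.

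The Sprouty genes encode inhibitors that are themselves tyrosine-phosphorylated after growth factor stimulation. Spry1 (chromosome 3, 37639947 to 37644598) had 27.5, 24.1 and 27.1 CPM in the ETV4 KO libraries, against 51.4, 49.9 and 55.0 CPM in the control libraries. Every ETV4 KO library lay far below every control library. The log2 fold change was -0.99 (SE 0.055, edgeR adjusted p = 7.10e-16), and 10.1% of all tested genes had a larger absolute change. With the median of its neighbours taken out it had -0.87. A transcript model on the other strand, Gm42922, shares 710 exonic bases with Spry1, and its reads could have been counted with it if strand was not used.

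Spry4, an inhibitor best known from FGF and VEGF signalling (chromosome 18, 38586247 to 38601415), went the other way. It had 20.3, 19.5 and 20.7 CPM in the ETV4 KO libraries, against 12.8, 12.1 and 12.1 CPM in the control libraries, and the groups did not overlap. Its log2 fold change was 0.71 (SE 0.069, edgeR adjusted p = 1.79e-10). It had 0.56 with the median of its neighbours taken out. Tested against a change of 1.5-fold it narrowly missed the threshold (glmTreat adjusted p = 0.0721).

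Spry2, which binds the ubiquitin ligase Cbl and the adaptor Grb2 (chromosome 14, 105891947 to 105896819), had 121, 133 and 123 CPM in the ETV4 KO libraries, against 106, 110.3 and 109 CPM in the control libraries. The groups were separate but close, and Spry2 was higher by 0.21 on the log2 scale (SE 0.039, edgeR adjusted p = 1.90e-05). The expressed genes within its 10 Mb bin of chromosome 14 had a median of 0.13, and with that median taken out Spry2 had 0.084 and no longer passed (edgeR adjusted p = 0.0593).

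With opposite changes in the single genes, the Sprouty transcripts hardly differed in sum. Per kilobase of annotated exon, the 3 genes together reached 73.5 CPM per kb ± 2.47 in ETV4 KO and 72.5 CPM per kb ± 1.36 in control libraries (SD, n = 3 each), and the libraries of the groups overlapped. What differed was the makeup. Spry1 made up 12.3% ± 1.25 of this sum in ETV4 KO and 24.7% ± 1.01 in control libraries (SD, n = 3 each). Spry2 made up 81.9% ± 1.60 in ETV4 KO and 71.7% ± 1.02 in control, and Spry4 5.78% ± 0.359 in ETV4 KO and 3.58% ± 0.183 in control. The ratio of Spry2 to Spry1, which does not depend on library scaling, was 6.13, 7.70 and 6.32 in the ETV4 KO libraries, against 2.87, 3.08 and 2.77 in the control libraries. The ratio of Spry4 to Spry1 was 0.452, 0.493 and 0.469 in the ETV4 KO libraries, against 0.152, 0.148 and 0.134 in the control libraries. In each ETV4 KO library both ratios were above those of every control library.

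**Figure D2:**
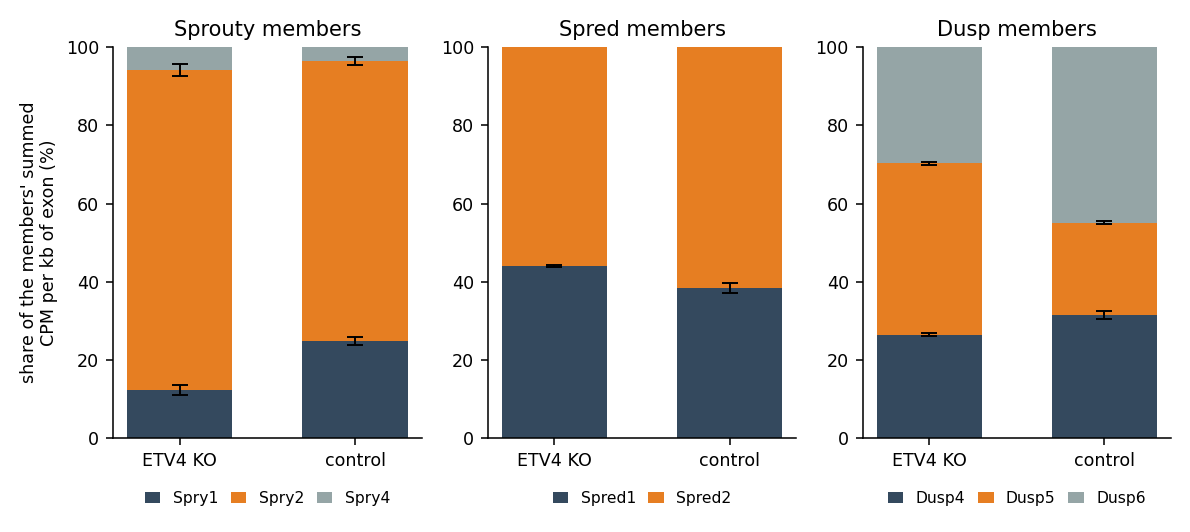
Makeup of the Sprouty, Spred and Dusp transcripts, as the share (%) of each gene in the summed CPM per kb of exon of its family, with ETV4 KO left of control (mean of n = 3; the bar on a boundary is the SD of the share below it). Dusp5 takes 43.8% of the Dusp sum in ETV4 KO and 23.6% in control, and Spry1 takes 12.3% of the Sprouty sum in ETV4 KO and 24.7% in control.

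The 2 Spred genes, which share the EVH1 domain that binds neurofibromin, differed little between the groups. Spred1 (chromosome 2, 117121374 to 117182279) had 99.4, 96.4 and 99.4 CPM in the ETV4 KO libraries, against 93.5, 95.3 and 98.4 CPM in the control libraries, and the groups overlapped. Its log2 fold change was 0.039 (SE 0.037, edgeR adjusted p = 0.346), with a 95% interval of -0.037 to 0.12. The sign turned with library size alone as the scaling (-0.012) and with the median of its neighbours taken out (-0.17, edgeR adjusted p = 0.000187).

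Spred2 (chromosome 11, 19924375 to 20024026) had 87.1, 82.4 and 86.6 CPM in the ETV4 KO libraries, against 108, 103 and 102 CPM in the control libraries. It was lower in each ETV4 KO library, and its log2 fold change was -0.29 (SE 0.039, edgeR adjusted p = 1.12e-07). The expressed genes of chromosome 11 as a whole had a median of -0.38, more negative than Spred2 itself, and with that median taken out it had 0.094 (edgeR adjusted p = 0.0346). Together the Spred genes reached 33.0 CPM per kb ± 0.812 in ETV4 KO and 36.7 CPM per kb ± 0.508 in control libraries (SD, n = 3 each).

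The Dusp genes also split within the family. Dusp5 (chromosome 19, 53529109 to 53542431) encodes a phosphatase that is selective for ERK and resides in the nucleus. It had 162, 161 and 159 CPM in the ETV4 KO libraries, against 68.4, 66.9 and 70.0 CPM in the control libraries. The spread within a group was small beside the distance between the groups. The log2 fold change was 1.23 (SE 0.036, edgeR adjusted p = 1.16e-22), and 7.30% of all tested genes had a larger absolute change. The expressed genes of its 10 Mb bin had a median of 0.14, and Dusp5 kept 1.09 with it taken out. An antisense transcript on the other strand, AC137853.2, shares 547 exonic bases with Dusp5, and its reads could have been counted with it if strand was not used.

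Dusp6 (chromosome 10, 99263231 to 99267489) encodes an ERK-selective phosphatase of the cytoplasm. It had 139, 136 and 138 CPM in the ETV4 KO libraries, against 168, 160.1 and 168 CPM in the control libraries, and the groups did not overlap. The log2 fold change was -0.26 (SE 0.034, edgeR adjusted p = 8.09e-08), and -0.20 with the median of its neighbours taken out.

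Dusp4 (chromosome 8, 34807297 to 34819894), a nuclear phosphatase of ERK that also acts on JNK and p38, had 107, 106 and 109 CPM in the ETV4 KO libraries, against 102, 103 and 99.0 CPM in the control libraries. The groups were separate by a small margin. The log2 fold change was 0.083 (SE 0.036, edgeR adjusted p = 0.0419). This call was lost in 9 of 16 alternatives, among them DESeq2 (adjusted p = 0.0651). It was also lost when single libraries were left out: ETV4 KO replicate 1 (edgeR adjusted p = 0.0662), ETV4 KO replicate 3 (0.132), control replicate 1 (0.0674) and control replicate 3 (0.170). Its neighbours on chromosome 8 had a median of -0.20, and with it taken out Dusp4 had 0.28.

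In sum the 3 Dusp genes reached 148 CPM per kb ± 0.983 in ETV4 KO and 117 CPM per kb ± 1.37 in control libraries (SD, n = 3 each), with no overlap between the groups. The order within the family turned over. The ratio of Dusp5 to Dusp6 per kilobase was 1.47, 1.49 and 1.46 in the ETV4 KO libraries, against 0.517, 0.529 and 0.528 in the control libraries. Dusp5 thus exceeded Dusp6 in each ETV4 KO library and lay below it in each control library. This ratio describes a single gene pair, not all nuclear and cytoplasmic phosphatases. Relative to Dusp4, Dusp5 stood at 1.66 ± 0.0395 in ETV4 KO and 0.749 ± 0.0326 in control libraries (SD, n = 3 each).

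Ier3 (chromosome 17, 35821684 to 35822923) is an immediate early gene whose product is a substrate of ERK. It had 639.6, 663 and 634 CPM in the ETV4 KO libraries, against 356, 364 and 376 CPM in the control libraries, a clear separation. The log2 fold change was 0.82 (SE 0.032, edgeR adjusted p = 1.02e-19). The genes around it had a median of 0.29 and those of chromosome 17 a median of 0.37, and Ier3 kept 0.53 with the local median taken out.

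Il17rd (chromosome 14, 27038941 to 27107286), also known as Sef, is a membrane protein that restrains FGF receptor signalling. It was barely expressed, with 10, 21 and 14 counts in the ETV4 KO libraries, against 27, 23 and 25 counts in the control libraries. In CPM these were 0.349, 0.848 and 0.586 in ETV4 KO and 1.16, 0.849 and 1.10 in control, so that the highest ETV4 KO library and the lowest control library all but met. The log2 fold change was -0.81 (SE 0.31, edgeR adjusted p = 0.0199), with a 95% interval of -1.44 to -0.18. The call was lost with DESeq2 (adjusted p = 0.0632), without ETV4 KO replicate 1 (log2 fold change -0.51, edgeR adjusted p = 0.162), without control replicate 1 (0.0706) and without control replicate 3 (0.0550).

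**Figure D3:**
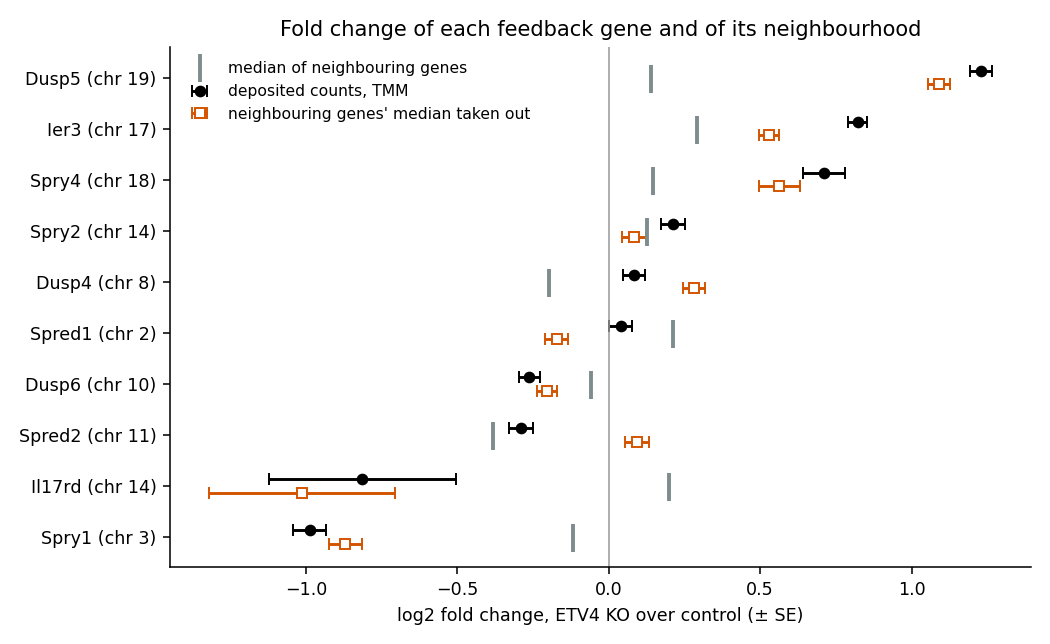
Log2 fold change of each feedback gene, ETV4 KO over control (filled circles ± SE, n = 3 per group), beside the median of the expressed genes in its 10 Mb bin (grey ticks; for Spred2, of chromosome 11) and the value with that median taken out (open squares ± SE). Dusp5, Ier3, Spry4 and Spry1 lie far from their neighbourhoods, while Spred2 at -0.29 lies near its chromosome's -0.38 and Spry2 at 0.21 near its bin's 0.13. Il17rd, barely expressed, lies at -0.81 and also far from its bin's 0.20.

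Ordered by level per kilobase, Ier3 led in both groups, with 571 CPM per kb ± 13.3 in ETV4 KO and 323 CPM per kb ± 8.99 in control libraries (SD, n = 3 each). In ETV4 KO libraries Dusp5 (64.9 CPM per kb ± 0.603) and Spry2 (60.2 ± 3.22) followed, the lowest Dusp5 library at 64.2 just above the highest Spry2 library at 63.9. Below them came Dusp6 (44.0 ± 0.446), Dusp4 (39.2 ± 0.663), Spred2 (18.5 ± 0.558), Spred1 (14.5 ± 0.255), Spry1 (9.02 ± 0.629), Spry4 (4.24 ± 0.136) and Il17rd (0.0541 ± 0.0227). In control libraries Dusp6 (52.8 CPM per kb ± 1.41) and Spry2 (52.0 ± 1.12) did not differ beyond their spread. Dusp4 (37.0 ± 0.774), Dusp5 (27.7 ± 0.625), Spred2 (22.6 ± 0.760), Spry1 (17.9 ± 0.906), Spred1 (14.1 ± 0.366), Spry4 (2.59 ± 0.0870) and Il17rd (0.0945 ± 0.0151) came after them. Dusp5 thus stood next to Ier3 in ETV4 KO libraries, but below Dusp6, Spry2 and Dusp4 in control libraries. Spry1 stood below Spred1 in ETV4 KO libraries and above it in control libraries. The lengths are those of all annotated exons, so a gene that uses only part of them is placed too low.

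Genes of the same pathway outside the 10 were grouped into lists. Among 9 other phosphatases of MAP kinases or their relatives, 6 rose and 1 fell, with a median log2 fold change of 0.30, beside 35.0% and 36.0% of all tested genes called higher and lower. Dusp1, the immediate early phosphatase of JNK, p38 and ERK, had 672, 690.2 and 691 CPM in the ETV4 KO libraries, against 312, 320.0 and 325 CPM in the control libraries, with a rise of 1.10 on the log2 scale (SE 0.031, edgeR adjusted p = 3.76e-23). It had 0.74 with its neighbours' median of 0.36 taken out. Dusp2, a nuclear phosphatase of ERK and p38 at low level, had 68, 67 and 60 counts in the ETV4 KO libraries, against 27, 19 and 16 counts in the control libraries, and rose by 1.57 (SE 0.22). Dusp8, which acts on JNK and p38, rose by 0.75 (SE 0.048), and Dusp10, which also acts on JNK and p38, had -0.49 (SE 0.050). Of the remaining Sprouty and Spred genes, Spred3 rose by 0.79 (SE 0.053), with 48.8, 48.3 and 44.8 CPM in ETV4 KO and 28.7, 27.2 and 26.1 CPM in control libraries, while Spry3 had 1 count over the 6 libraries and was not tested.

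Of 15 tested transcripts that follow ERK output, 10 rose and 4 fell, beside 35.0% of all tested genes called higher and 36.0% called lower, with a median log2 fold change of 0.19. Against 1.5-fold (glmTreat) 0 of them passed as higher and 1 as lower, beside 735 and 949 of the 12076 tested genes. The zinc finger factor Klf6 rose by 0.61 (SE 0.030), the AP-1 subunit Fosl1 by 0.58 (SE 0.031) and Myc by 0.45 (SE 0.034), whereas the ephrin receptor Epha4 had -1.05 (SE 0.051). Of the 4 that fell, 3 were the PEA3 genes Etv4, Etv5 and Etv1, named after their values were seen, at -0.58, -0.65 and -0.10. Etv4 is the targeted gene and had -0.11 with the median of its neighbours taken out. Etv1 passed only narrowly (edgeR adjusted p = 0.0262). Myc lies on chromosome 15 among genes with a median of 0.30, and had 0.15 with it taken out.

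The core of the pathway, made up of adaptors, RAS exchange factors, RAS proteins and kinases, had 22 tested genes. Of these 9 rose and 10 fell, beside 35.0% and 36.0% of all tested genes called higher and lower. The median log2 fold change of the core genes was 0.010, and 0 of them changed by 2-fold or more. The kinase gene Braf had -0.48 (SE 0.071), the adaptor Grb2 -0.46 (SE 0.035), the RAS relative Mras -0.45 (SE 0.050), and the RAS exchange factor Sos1 rose by 0.62 (SE 0.041). Grb2 lies on chromosome 11 and had 0.037 with its neighbours' median of -0.49 taken out. Under that setting Braf had -0.30, Mras -0.12 and Sos1 0.22. It called 8 core genes higher, in place of 9, and 4 lower, in place of 10. Of the 12076 tested genes it called 3684 higher and 4136 lower. Among 17 other brakes on RAS and ERK, 6 rose and 8 fell, again beside 35.0% and 36.0% of all tested genes, with a median of 0.0014. The EGF receptor inhibitor Errfi1 had -0.69 (SE 0.034), with 162, 159 and 171 CPM in ETV4 KO and 260.2, 264 and 269 CPM in control libraries. The ubiquitin ligase Cblb had -0.59 (SE 0.055) and the receptor inhibitor Lrig1 -0.40 (SE 0.033), while the RAS GTPase activator Rasa3 rose by 0.47 (SE 0.034). Cblb had -0.29 with the median of its neighbours taken out.

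**Figure D4:**
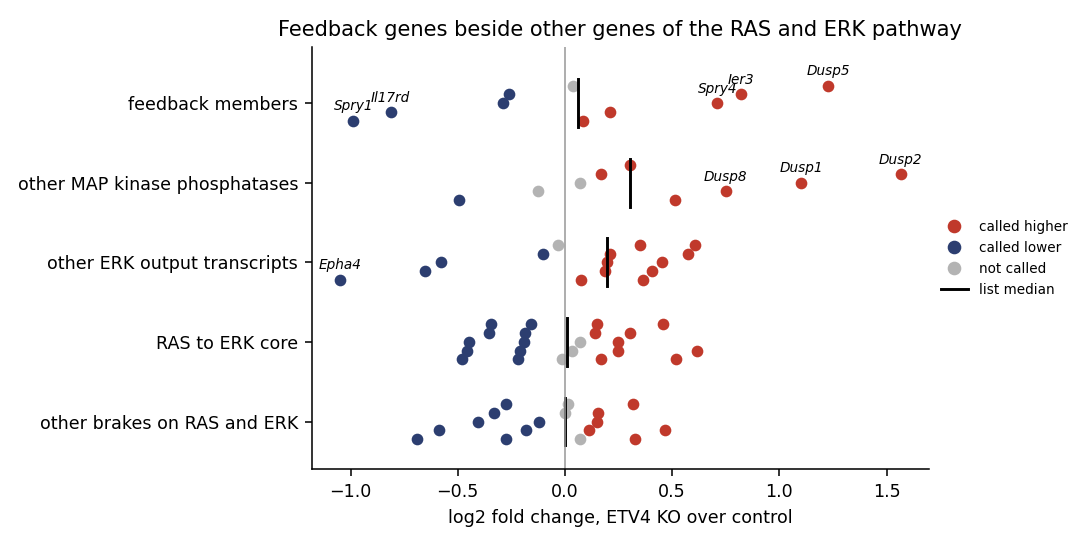
Log2 fold change, ETV4 KO over control, of the 10 feedback genes and of 4 other lists of the RAS and ERK pathway; each point is a gene (red, called higher; blue, called lower; grey, not called) and the black line is the list median. The feedback genes spread from -0.99 to 1.23 around a median of 0.061, while the core genes stay between -0.48 and 0.62.

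When the change itself was tested against 1.5-fold (glmTreat), 3 of the 10 genes passed, Dusp5 and Ier3 higher and Spry1 lower, beside 13.9% of all tested genes. The groups did not overlap for 9 of the 10 genes, beside 72.7% of all tested genes. The genes whose levels over the 6 libraries, relative to the control mean, were most like those of Dusp5 were the formin Diaph3, the EMT transcription factor Zeb2 and the pyrophosphate transporter gene Ank, at Euclidean distances of 0.0764, 0.0789 and 0.0846 in log2 CPM. Their log2 fold changes were 1.25, 1.22 and 1.22, beside 1.23 for Dusp5. With 2 groups of 3 libraries this likeness is mainly one of the size of the change between the groups.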

How the data were processed

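The authors' deposited table holds unnormalized counts of reads per gene symbol. Tools named in the submitters' processing notes are STAR 2.7.9a, featureCounts, FastQC 0.11.9 and R 4.1.1, with the builds mm10 and hg38. Which annotation, strand setting and treatment of multiply mapped reads were used is not given in these sources. Per the labels' protocols, gels were digested with collagenase and libraries made with a stranded poly(A) kit. Libraries were grouped by sample title and matched by library name.

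Counts were tested with edgeR 4.0.16 in R 4.3.3 (filterByExpr with minimum count 10 and minimum total 15, TMM, glmQLFit and glmQLFTest on the group, Benjamini-Hochberg over 12076 genes, called under 0.05). The SE is the absolute log2 fold change over the square root of F. Positions and exon lengths are from GENCODE M21 (GRCm38, equal to mm10). Neighbours are the other genes with log2 CPM above 3 in the 10 Mb bin of a gene, or on its chromosome where the bin held under 10; values with their median taken out treat it as known. Alternatives were other scaling factors, DESeq2 1.42.0, limma-voom (limma 3.58.1), other filters, a replicate block, each library left out, and glmTreat. The steps were tested on simulated data. The 10 genes and the lists were chosen with earlier results of these data known. Named genes were the 10, Etv4, and from each list up to 3 called genes with the largest change in the commoner direction, plus 1 of the opposite direction; the last rule named the 3 genes most like Dusp5.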

Additional observations from a re-analysis of the deposited data

How the results depend on the processing

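Calls of Spry1, Dusp5 and Ier3 held under the 16 alternatives, with log2 fold changes of -1.04 to -0.87, 1.09 to 1.25 and 0.53 to 0.84. Against 1.5-fold (glmTreat) 1684 genes passed, 735 higher and 949 lower, among them 3 feedback genes, 2 higher and 1 lower. Of the lists it called 3 higher and 0 lower among other phosphatases, 0 and 0 in the core, 0 and 1 among other brakes, and 0 and 1 among other outputs. With neighbours' medians taken out 5 feedback genes were higher and 4 lower, beside 3684 higher and 4136 lower of the 12076 tested genes. They were not all the same genes as before. Spred1 (-0.17) and Spred2 (0.094) changed sign and were called lower and higher, and Spry2 lost its call. Grb2 had 0.037, and in the core 8 genes were higher and 4 lower. With library size alone Spred1 had -0.012. Among other phosphatases 2 were lower, not 1, with upper-quartile factors, library size alone, neighbours' medians and the replicate block, and 1 to 2 with single libraries left out. The replicate block called 8882 genes, against 8582 without it, and the same number of feedback genes, 9. Whether the replicate numbers pair the libraries was not settled. Same-numbered deviations correlated weakly across genes, at 0.071, 0.071 and 0.019. ETV4 KO replicates 1 and 2 correlated best with their own number. ETV4 KO replicate 3 had 0.020 with control replicate 1 and 0.019 with control replicate 3. Over the 10 feedback genes 137 values kept direction and call, 19 lost the call and 3 changed sign; over 22 other genes these were 338, 13 and 1. Il17rd did not pass the CPM filter, so that alternative gives it no value. Depth limits Il17rd, with 45 counts over the ETV4 KO libraries and 75 over the control libraries.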

Other observations

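The other Dusp symbols of the table, mostly small phosphatases that lack the ERK-binding part of the MAP kinase phosphatases, were looked at after the values above were known. Of 13 such symbols 9 were tested: 1 rose, 3 fell and 5 did not pass at an edgeR adjusted p under 0.05, beside 35.0% of all tested genes called higher and 36.0% called lower. Dusp3, a small phosphatase of ERK and JNK, had 48.4, 45.7 and 45.1 CPM in the ETV4 KO libraries, against 29.5, 25.4 and 26.4 CPM in the control libraries; the log2 fold change was 0.78 (SE 0.055, edgeR adjusted p = 2.03e-13). Dusp3 lies on chromosome 11, 185771 bases from Etv4, where the expressed neighbours had a median of -0.47. Dusp22, at low level, had 1.74 CPM ± 0.309 in ETV4 KO and 3.56 CPM ± 0.255 in control libraries (SD, n = 3 each); the log2 fold change was -1.02 (SE 0.17, edgeR adjusted p = 4.37e-06). Dusp18 and Dusp11 had -0.26 and -0.16, and the libraries of the groups overlapped for Dusp11. Over the 20 tested Dusp symbols of the table, 9 were higher and 5 lower, beside the same 35.0% and 36.0%.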
